A study of Mus musculus with 2 samples.

Results

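The cytochrome P450 genes were examined in mouse heart after pressure overload, with and without dioscin. Members were the protein-coding genes whose GENCODE M21 symbol is Cyp, a family number, a subfamily letter or letters and a gene number, with 1 such symbol left out by the selection rule. This gave 93 genes of 55401 gene identifiers in the count tables. The 21 members with at least 1 CPM (counts made comparable by dividing by the scaled library size) in either library are described in detail.

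Messenger RNA was sequenced from hearts of C57BL/6 mice. The dioscin library came from mice that underwent transverse aortic constriction (TAC), in which the aortic arch is tied narrow so that the left ventricle pumps against raised pressure, and then received dioscin, a steroid glycoside from plants, over 4 weeks. The TAC library came from mice labelled with TAC alone. Each group had 1 library, the labels give neither the age of the mice nor the number of hearts in a library, and hearts without surgery were not analysed here. The treatment protocol names dioscin for both samples alike, so that the TAC library counts as untreated on its treatment label only.

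P450 enzymes are haem proteins that insert 1 atom of molecular oxygen into a substrate, using electrons from NADPH. Those of the endoplasmic reticulum receive the electrons from P450 reductase, and those of mitochondria from ferredoxin. In heart and vessels they are best known for turning arachidonic acid into epoxy acids, which relax vessels, and into omega-hydroxylated acids, which constrict them. Other members clear drugs, oxysterols, retinoic acid, vitamin D and steroid hormones, and many of these are used mainly in liver, adrenal gland or gonads.

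The dioscin library held 17612259 counts in genes and the TAC library 16782741, of which genes of the mitochondrial genome took 25.5% in the dioscin library and 31.6% in the TAC library. Markers of ventricular muscle were high in both libraries, none of the 6 differed by 2-fold, and their summed level was 42917 CPM in the dioscin library and 39383 CPM in the TAC library. The libraries stood apart in markers of some other tissue parts. Of 6 atrial muscle markers 5 were higher (at least 2-fold, with a counting interval of the ratio that excludes 1), and their summed level was 17319 CPM in the dioscin library and 592 CPM in the TAC library, where Mybphl and Bmp10 were at 0. Of 8 mesothelial markers 7 were higher, and the sum was 153 CPM with dioscin and 18.5 CPM in TAC alone, with Krt8 and Krt18 at 0 there. Of 7 fat markers 5 were higher, and the sum was 31.1 CPM with dioscin and 0.811 CPM in TAC alone, with Lep at 0 in both libraries and Plin1, Cidec and Retn at 0 in TAC alone. Of 6 fibroblast markers 4 were higher, and the sum was 1449 CPM with dioscin and 420 CPM in TAC alone, with no marker at 0. Of 6 B cell markers 5 were lower, and the sum was 3.86 CPM with dioscin and 17.1 CPM in TAC alone. Other lists were mostly not called. Of 5 endothelial markers 1 was higher and 1 lower, and of 4 smooth muscle and 6 macrophage markers 1 each was higher and none lower. Among protein-coding genes at 1 CPM or more in either library, 9.80% were higher and 7.27% lower by the same measure. In bulk tissue, more cells of a type and more RNA per cell cannot be told apart, and the part of these tissue markers in the P450 differences was not tested.

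**Figure D1:**
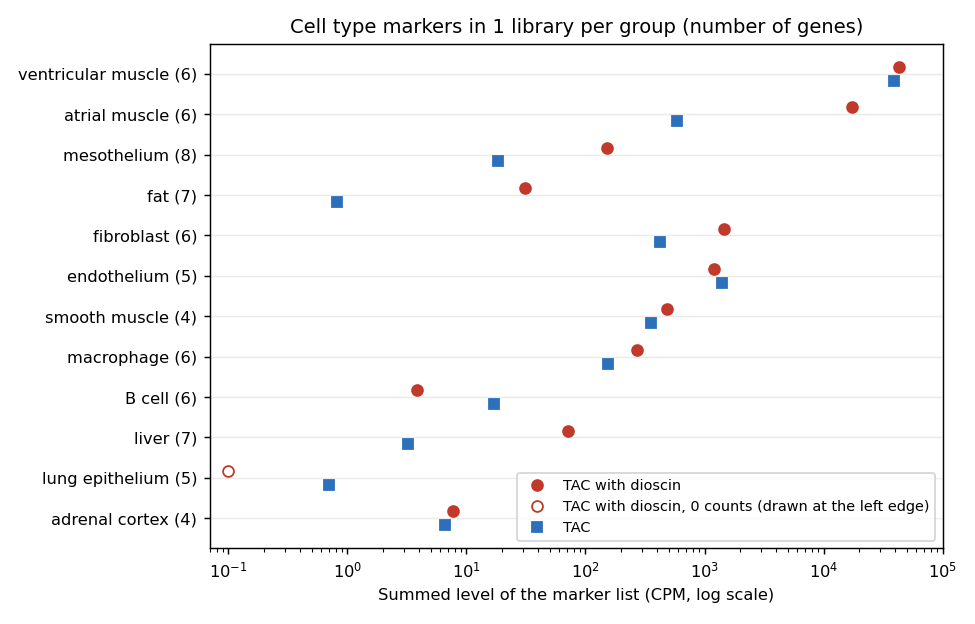
Summed level of each cell type marker list (CPM, log scale) in the dioscin library (red circles) and the TAC library (blue squares), with the number of genes in brackets. Atrial markers stood at 17319 CPM with dioscin and 592 CPM in TAC alone, while ventricular markers stood at 42917 CPM with dioscin and 39383 CPM in TAC alone, and lung markers had 0 counts with dioscin (open circle at the left edge).

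For a member to be called higher or lower, 3 conditions applied. It needed 1 CPM or more in either library, a ratio of dioscin over TAC of at least 2 in either direction, and an exact 95% Clopper-Pearson interval of the ratio that excluded 1. With 1 library per group this size rule is no test of the treatment, and the intervals cover counting error only. By this rule 5 of the 21 members were higher and 2 lower, and the other 14 were not called. The 5 higher ones were Cyp2e1, Cyp2s1, Cyp4f15, Cyp1b1 and Cyp39a1, and the 2 lower ones Cyp1a1 and Cyp7b1. The same rule called 9.80% of 13219 protein-coding genes higher and 7.27% lower. Among the P450 members the shares were 23.8% higher and 9.52% lower. The count of lower members is near its background, and the count of higher members rests partly on the filter, because Cyp2e1, Cyp2s1 and Cyp4f15 reached 1 CPM in the dioscin library only. Of the 16 members that had 1 CPM in both libraries, 2 were higher (Cyp1b1 and Cyp39a1) and 1 was lower (Cyp1a1), beside 7.70% and 5.57% of protein-coding genes. This stricter filter was chosen after seeing the data.

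The members did not shift as a block. The median log2 ratio of the 21 was 0.28, against 0.02 for protein-coding genes under the same filter, and 13 members had a ratio above 1 and 8 below it. With the library sizes taken from nuclear genes alone, the median of the same 21 was 0.079 and that of protein-coding genes -0.19, and the median was -0.029 over the 22 members that then passed the filter, Cyp26a1 being the added one.

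**Figure D2:**
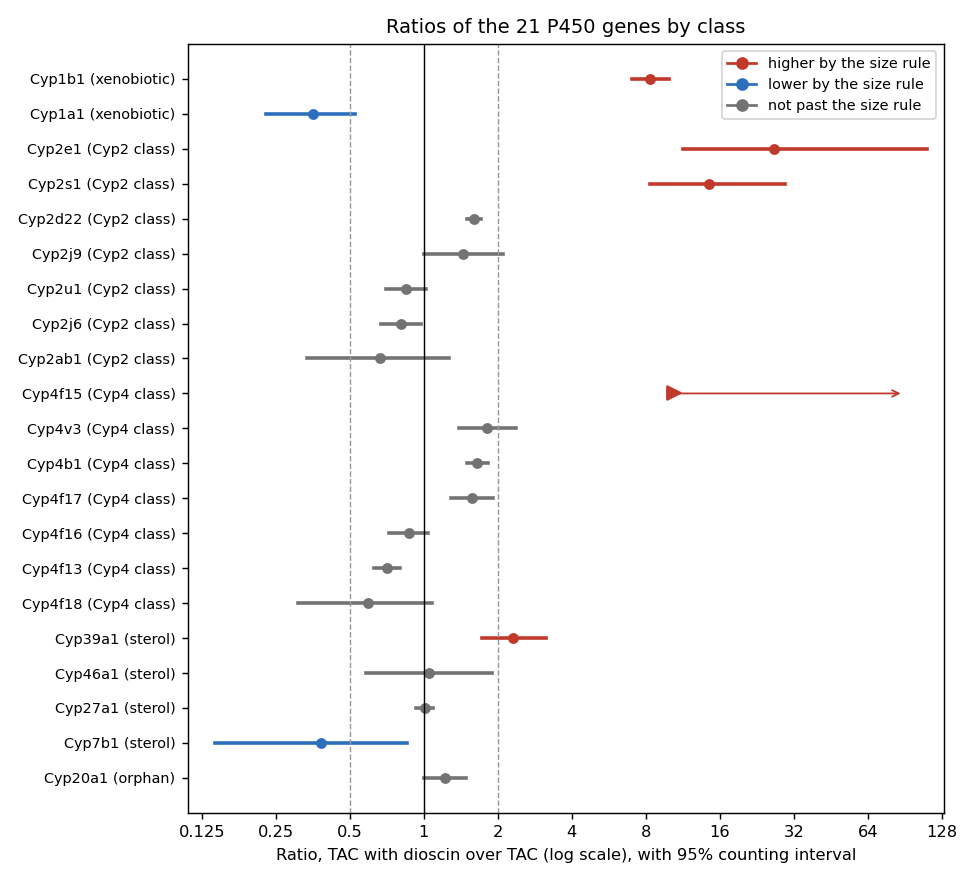
Ratio (dioscin over TAC) for the 21 P450 genes at 1 CPM or more (log scale), grouped by class, with bars for the 95% counting interval and dashed lines at 0.5 and 2. Cyp4f15 has 0 counts in TAC alone, so its triangle marks the ratio of 10.4 against a floor of 3 counts. The lower limit of its counting interval, 7.98, is not drawn. The higher genes (red) lie in 4 of the 5 classes drawn, and both lower genes (blue) share a class with a higher one.

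Levels between genes were compared as CPM per kilobase of exon. In the dioscin library the order began with Cyp2d22 at 37.3, Cyp27a1 at 33.7, Cyp4b1 at 29.4 and Cyp1b1 at 11.9 CPM per kb. In the TAC library it began with Cyp27a1 at 33.3, Cyp2d22 at 23.3, Cyp4b1 at 17.8 and Cyp4f13 at 8.68 CPM per kb. The same 3 genes thus led both libraries, and Cyp1b1 stood at place 4 with dioscin and at place 11 in TAC alone. The 4 most counted members held 70.5% of all P450 counts in the dioscin library and 70.0% in the TAC library. All 93 members together had 8609 counts (503 CPM) in the dioscin library and 5976 counts (346 CPM) in the TAC library. Without Cyp1b1 the sums were 433 CPM with dioscin and 338 CPM in TAC alone.

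**Figure D3:**
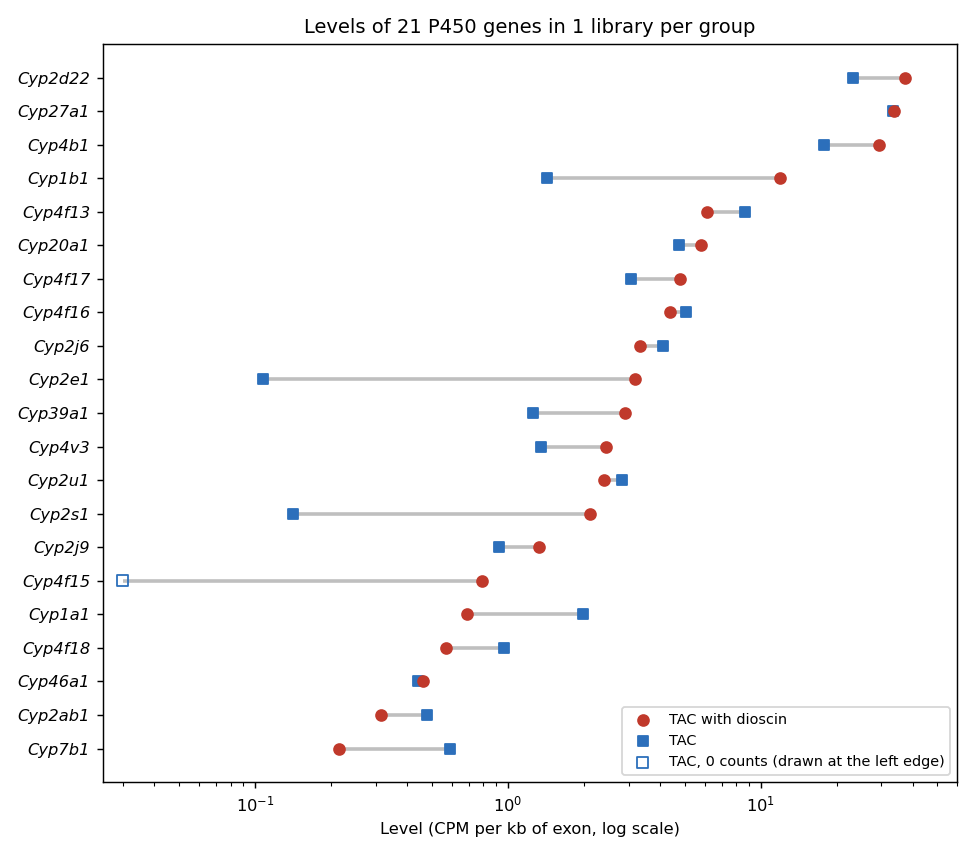
Level of the 21 P450 genes (CPM per kilobase of exon, log scale) in the dioscin library (red circles) and the TAC library (blue squares), ordered by the dioscin library. Cyp2d22, Cyp27a1 and Cyp4b1 lie at the top in both libraries, and the longest lines join the values of Cyp4f15 (0 counts in TAC alone, open square at the left edge), Cyp2e1, Cyp2s1 and Cyp1b1.

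The family that oxidises aromatic hydrocarbons and oestrogens held a gene of each direction. Cyp1b1 (ENSMUSG00000024087.4, minus strand of chromosome 17, 79701537 to 79715061 on GRCm38) hydroxylates oestrogens and also acts on arachidonic acid and retinol outside the liver. It had 1190 counts (69.5 CPM) in the dioscin library and 144 counts (8.34 CPM) in the TAC library, a ratio of 8.31 (95% counting interval 7.01 to 9.98). By the size rule with a ratio of at least 8, 1.39% of protein-coding genes were higher. That cut lies just under the Cyp1b1 ratio and inside its interval, so the share does not measure rarity independently. The log2 ratio of Cyp1b1 was 3.06. It became 2.97 with library sizes taken from all gene counts and 2.85 with those from nuclear genes. Cyp1a1 (ENSMUSG00000032315.6, plus strand of chromosome 9, 57687928 to 57703824), which oxidises polycyclic aromatic hydrocarbons, had 33 counts (1.93 CPM) with dioscin and 95 counts (5.50 CPM) in TAC alone. It was 2.83-fold lower (1.90 to 4.38). Cyp1a2, the liver member of the family, had 0 counts in both libraries.

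Cyp1a1 and Cyp1b1 are both known targets of the aryl hydrocarbon receptor, AHR, as is Cyp2s1, and their promoters are printed because they differed between the libraries by unlike amounts and directions. Each window is RefSeq's (GRCm38.p6), 5′ to 3′ on the gene's strand, from 250 bases before to 50 bases after the start used there. For Cyp1a1 and Cyp2s1 that start lies inside the GENCODE span of the gene, so it is not the GENCODE gene start. Distances of motifs are counted from the RefSeq start. Capitals mark the AHR core motif GCGTG, read on either strand as GCGTG or CACGC. The windows are chr17:79715012-79715311 (minus strand), chr9:57697363-57697662 (plus strand) and chr7:25816476-25816775 (minus strand).
Cyp1b1: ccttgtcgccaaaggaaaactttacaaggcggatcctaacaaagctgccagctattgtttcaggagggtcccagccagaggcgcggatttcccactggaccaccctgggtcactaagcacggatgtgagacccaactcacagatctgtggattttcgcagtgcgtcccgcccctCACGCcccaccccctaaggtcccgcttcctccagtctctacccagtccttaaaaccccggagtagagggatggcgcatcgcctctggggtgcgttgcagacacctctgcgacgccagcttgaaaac
Cyp1a1: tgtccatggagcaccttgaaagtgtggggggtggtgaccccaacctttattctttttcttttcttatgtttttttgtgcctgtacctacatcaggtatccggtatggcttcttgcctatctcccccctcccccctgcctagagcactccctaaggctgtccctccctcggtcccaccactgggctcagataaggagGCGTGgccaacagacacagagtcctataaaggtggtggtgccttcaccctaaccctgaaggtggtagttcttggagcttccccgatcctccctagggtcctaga
Cyp2s1: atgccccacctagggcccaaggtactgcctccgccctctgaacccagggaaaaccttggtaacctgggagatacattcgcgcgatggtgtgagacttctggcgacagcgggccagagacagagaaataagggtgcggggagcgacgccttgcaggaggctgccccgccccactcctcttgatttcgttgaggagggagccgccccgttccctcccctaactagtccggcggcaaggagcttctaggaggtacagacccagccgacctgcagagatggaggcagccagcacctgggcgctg

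The Cyp1b1 window held 1 match, beginning 76 bases before its RefSeq start, and the Cyp1a1 window held 1 match, beginning 54 bases before its RefSeq start. No GCGTG lay in the Cyp2s1 window. Sequence outside the windows was not searched, so a match further upstream would not be seen for any of the 3 genes. The motif was found in 8 of the 16 members at 1 CPM or more that have a window in the table, and in 32.4% of all 32851 windows. A match is a stretch of letters and no shown binding site. Other motifs were rare among the 16 windows. The E-box CACGTG was in 2 (Cyp2j6 and Cyp4v3) beside 7.15% of all windows. The glucocorticoid receptor half-site AGAACA was in 2 (Cyp2j6 and Cyp4b1) beside 19.0%. The D-box TTATGNAA was in 1 (Cyp27a1) beside 3.38%, and its form TTACGNAA in 0 beside 0.627%. The direct-repeat element of PPAR was in 0 beside 0.0396%. The motifs were searched on both strands, and in the Cyp4v3 window, which holds both GCGTG and CACGTG, the matches begin 16 and 171 bases before the start and do not overlap.

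AHR and its partners did not pass the size rule. Ahr itself had 231 counts with dioscin and 224 in TAC alone, a ratio of 1.04 (0.862 to 1.26). The ratio was 1.25 (1.13 to 1.37) for its dimer partner Arnt and 0.872 (0.568 to 1.33) for Ahrr, its repressor. For the target genes Tiparp and Nqo1 it was 1.39 (1.17 to 1.64) and 1.69 (1.42 to 2.01). The 2 genes of family 1 with counts thus stood on opposite sides of 1 while these 5 genes lay between 0.872 and 1.69.

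Families 2 and 3, the epoxygenases and drug-metabolising enzymes other than the vitamin D hydroxylase Cyp2r1, held 55 members, of which 23 had a count and 7 reached 1 CPM. Of these 7, 2 were called higher, none lower, and 5 stayed uncalled, beside 9.80% higher and 7.27% lower among protein-coding genes. Cyp2e1 (ENSMUSG00000025479.9, plus strand of chromosome 7, 140763739 to 140774987), which oxidises ethanol, acetone and other small molecules and is best known from liver, had 118 counts (6.89 CPM) in the dioscin library and 4 counts (0.232 CPM) in the TAC library. Its ratio of 26.6 has a wide interval (11.3 to 111) because of the 4 counts. Of 7 liver markers, 3 were higher with dioscin, with a summed level of 71.9 CPM against 3.24 CPM in TAC alone. Most of that sum was Ahsg, with 1167 counts with dioscin and 40 in TAC alone. Alb, the albumin gene, had 26 counts with dioscin and 0 in TAC alone, and Apoa1 had 19 with dioscin and 0 in TAC alone. The other genes of the list were under 1 CPM. Apoa2 had 13 counts with dioscin and 15 in TAC alone, and Serpina1a had 2 with dioscin and 1 in TAC alone. Fga and Fgb had 2 and 1 counts with dioscin and 0 in TAC alone. Fat markers, given above, were higher as well, and the part of either list in the Cyp2e1 value was not tested.

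Cyp2s1 (ENSMUSG00000040703.11, minus strand of chromosome 7, 25802475 to 25816913), a P450 of epithelia outside the liver, had 178 counts (10.4 CPM) with dioscin and 12 counts (0.695 CPM) in TAC alone. The ratio was 14.4 (8.36 to 29.5). Exons of an opposite-strand gene cover 5.27% of its exonic length, and the library kit does not mark strand. Markers of mesothelium, the epithelium that covers the heart, had a summed level of 153 CPM with dioscin and 18.5 CPM in TAC alone. The 5 lung epithelium markers were at 0 with dioscin and at 0.695 CPM together in TAC alone, where Scgb3a2, Sftpa1 and Sftpc were at 0. Most atrial, fat and fibroblast markers, given above, were higher with dioscin too. The part of any of these lists in the Cyp2s1 value was not tested.

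Cyp2d22 (ENSMUSG00000061740.8), a mouse relative of the human drug-metabolising enzyme CYP2D6, was the most counted member, with 2493 counts (146 CPM) in the dioscin library and 1571 counts (91.0 CPM) in the TAC library. Its ratio of 1.601 (1.502 to 1.71) excluded 1 but stayed under 2. The other 7 members of its subfamily had at most 3 counts in a library. The heart-expressed epoxygenases Cyp2j6 and Cyp2j9 were not called. Cyp2j6 had 205 counts with dioscin and 255 in TAC alone, a ratio of 0.811 (0.672 to 0.979). Cyp2j9 had 76 counts with dioscin and 53 in TAC alone, a ratio of 1.44 (1.005 to 2.095). These genes are neighbours, at 96516138 to 96553661 and 96568429 to 96591578 on chromosome 4. The interval of Cyp2j6 lay below 1, while that of Cyp2j9 only just excluded 1. With library sizes scaled by DESeq2 the log2 ratio of Cyp2j9 moved from 0.529 to 0.516, which takes its lower limit below 1. The 6 other Cyp2j members of that cluster had at most 5 counts in a library. Cyp2u1, which hydroxylates long-chain fatty acids, had 216 counts with dioscin and 257 in TAC alone, a ratio of 0.848 (0.704 to 1.02), with the reservation that an opposite-strand gene covers 10.5% of its exons. Cyp2ab1 was near the limit of detection, with 17 counts with dioscin and 26 in TAC alone. The epoxygenase subfamily Cyp2c, prominent in liver and kidney, had 15 members with 0 counts together in the dioscin library and 2 in the TAC library. A member at 0 counts can have had up to 0.175 CPM with dioscin and 0.174 CPM in TAC alone.

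The fatty acid omega-hydroxylases of family 4, which add a hydroxyl group to the end of a fatty acid or of leukotriene chains, had 17 members, of which 7 reached 1 CPM. Of these, 1 was called higher, none lower, and 6 stayed uncalled, beside 9.80% higher and 7.27% lower among protein-coding genes. Cyp4f15 (ENSMUSG00000073424.9, plus strand of chromosome 17, 32685627 to 32703352) had 31 counts (1.81 CPM) in the dioscin library and 0 in the TAC library. Against a floor of 3 counts in the TAC library the ratio was 10.4, a value that leaves out the counting error of the 31 counts. The 95% counting interval of its ratio began at 7.98 and had no upper limit. It lies in a cluster of 8 Cyp4f genes within chromosome 17, 32452723 to 32947402, and its neighbours there had other ratios. Cyp4f17 had 263 counts with dioscin and 169 in TAC alone, a ratio of 1.57 (1.29 to 1.92). Cyp4f16 had 231 counts with dioscin and 269 in TAC alone, a ratio of 0.867 (0.724 to 1.04). Cyp4f13, the most counted of the cluster, had 468 counts with dioscin and 666 in TAC alone, a ratio of 0.709 (0.629 to 0.799). Of the 4 expressed genes of the cluster, 2 thus had intervals above 1, 1 had an interval below 1 and 1 had an interval that spans 1. Some reads of Cyp4f16 are uncertain, since 17.4% of the 50-base stretches of its transcripts also occur in transcripts of other genes, among them Cyp4f37.

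Cyp4b1 (ENSMUSG00000028713.17), which hydroxylates medium-chain fatty acids and activates some toxins, had 1134 counts (66.3 CPM) in the dioscin library and 693 counts (40.1 CPM) in the TAC library. Its ratio was 1.65 (1.501 to 1.82), and 8.26% of its 50-base stretches are shared with transcripts of other genes, a pseudogene among them. Cyp4v3, the mouse counterpart of a human enzyme whose loss causes a crystalline retinal disease, had 160 counts with dioscin and 89 in TAC alone, a ratio of 1.81 (1.39 to 2.38). Another gene on the same strand covers 8.22% of its exonic length. Cyp4f18, known in mouse neutrophils for the breakdown of leukotriene B, had 18 counts with dioscin and 31 in TAC alone, a ratio of 0.593 (0.309 to 1.08). The Cyp4a subfamily, which in mouse liver and kidney follows the fatty acid receptor PPAR alpha, had 5 members with 19 counts together with dioscin and 11 in TAC alone, and none reached 1 CPM. Ppara, the gene of that receptor, had 57 counts with dioscin and 77 in TAC alone, a ratio of 0.749 (0.521 to 1.07).

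Among 6 enzymes of sterol and bile acid metabolism, 4 reached 1 CPM, and 1 was higher, 1 lower and 2 did not pass. Among protein-coding genes the shares were 9.80% higher and 7.27% lower. Cyp39a1 (ENSMUSG00000023963.10, plus strand of chromosome 17, 43667425 to 43751431), which hydroxylates oxysterols on the way to bile acids, had 152 counts (8.88 CPM) with dioscin and 66 counts (3.82 CPM) in TAC alone. Its ratio was 2.31 (1.73 to 3.15). Cyp7b1 (ENSMUSG00000039519.6, minus strand of chromosome 3, 18071950 to 18243338), another oxysterol hydroxylase, had 8 counts (0.467 CPM) with dioscin and 22 counts (1.27 CPM) in TAC alone. It was 2.62-fold lower (1.17 to 7.08), and with a 99% interval (ratio 0.103 to 1.07) the call was lost. Cyp27a1 (ENSMUSG00000026170.6), the mitochondrial sterol side-chain hydroxylase, was nearly even, with 1252 counts (73.1 CPM) in the dioscin library and 1251 counts (72.4 CPM) in the TAC library. Its ratio was 1.01 (0.933 to 1.09), and its log2 ratio of 0.014 became -0.19 with the library sizes taken from nuclear genes. Cyp46a1, the cholesterol hydroxylase of brain, had 26 counts with dioscin and 25 in TAC alone. Cyp7a1, the rate-limiting enzyme of bile acid synthesis in liver, had 0 counts in both libraries.

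Cyp7b1 makes and clears oxysterols that guide B cells through the receptor GPR183, together with Ch25h upstream and Hsd3b7 downstream. Ch25h had 8 counts with dioscin and 15 in TAC alone, Hsd3b7 had 34 with dioscin and 52 in TAC alone, and Gpr183 had 12 with dioscin and 24 in TAC alone. The ratios were 0.553 (0.198 to 1.35), 0.663 (0.415 to 1.04) and 0.515 (0.230 to 1.05), and none of the 3 passed the size rule. B cell markers stood beside them, with 5 of 6 lower, none at 0 counts and summed levels of 3.86 CPM with dioscin and 17.1 CPM in TAC alone. Their part in the Cyp7b1 value was not tested.

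Cyp20a1, a P450 without a known substrate, had 227 counts (13.3 CPM) with dioscin and 188 counts (10.9 CPM) in TAC alone, a ratio of 1.22 (1.00 to 1.49). No steroid hormone, vitamin D or retinoic acid enzyme among the members reached 1 CPM. Of the 29 members with a count but under 1 CPM in both libraries, 7 had 10 or more counts in a library. Cyp26a1, which breaks down retinoic acid, had 1 count with dioscin and 16 in TAC alone, a ratio of 0.0917 (0.00150 to 0.406). Cyp11a1, which starts steroid synthesis from cholesterol, had 12 counts with dioscin and 3 in TAC alone, a ratio of 3.60 (1.09 to 22.3), and Cyp8b1, a bile acid hydroxylase, had the same counts. Cyp2b10, a drug-induced liver enzyme, had 10 counts with dioscin and 1 in TAC alone, a ratio of 7.06 (1.44 to 438). Cyp27b1, which activates vitamin D, had 11 counts with dioscin and 9 in TAC alone, and Cyp2r1, the vitamin D hydroxylase of liver, had 4 with dioscin and 10 in TAC alone. Cyp3a13 had 11 counts with dioscin and 10 in TAC alone. The other 22 of the 29 had 1 to 9 counts, and 43 members had 0 counts in both libraries. Vdr, the vitamin D receptor, was higher all the same, with 99 counts with dioscin and 10 in TAC alone, a ratio of 9.56 (5.21 to 21.5), while Cyp24a1, the enzyme it is best known to induce, had 0 counts in both libraries.

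P450 enzymes whose symbols follow other rules were looked at beside the members. Of 6, 3 reached 1 CPM and 1 was higher, beside 9.80% of protein-coding genes. Ptgis, prostacyclin synthase, which makes a vessel-relaxing prostanoid, had 660 counts with dioscin and 323 in TAC alone, a ratio of 2.06 (1.80 to 2.36). Cyp51, the sterol demethylase of cholesterol synthesis, had a ratio of 1.06 (0.802 to 1.39), and Tbxas1, thromboxane synthase, one of 0.842 (0.617 to 1.14).

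Of 20 listed genes for the electron donors and the haem supply of P450 enzymes, 19 reached 1 CPM, 1 was higher and none lower, beside the 9.80% higher and 7.27% lower among all protein-coding genes. Their median log2 ratio was 0.28, and that of protein-coding genes 0.02. The higher gene was Hmox1, haem oxygenase, which breaks haem down and responds to oxidative stress, with 335 counts with dioscin and 112 in TAC alone, a ratio of 3.01 (2.43 to 3.77). Por, the reductase that feeds microsomal P450 enzymes, had 656 counts with dioscin and 393 in TAC alone, a ratio of 1.68 (1.48 to 1.91). Fdxr, which feeds the mitochondrial enzymes, had 133 counts with dioscin and 244 in TAC alone, a ratio of 0.551 (0.442 to 0.682). The intervals of these reductases lay on opposite sides of 1 and within the 2-fold limits by ratio. Alas1, the first enzyme of haem synthesis, had a ratio of 0.737 (0.664 to 0.817).

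A list of 24 genes held nuclear receptors and other factors known to act on P450 genes, with the AHR target genes Tiparp and Nqo1 among them. Of the 24, 21 reached 1 CPM. Of these, 2 were higher and 2 lower, beside the same 9.80% and 7.27% of protein-coding genes, and the median log2 ratio was 0.057. Besides Vdr, the higher gene was Hlf, with 179 counts with dioscin and 84 in TAC alone, a ratio of 2.14 (1.65 to 2.82). The lower genes were Dbp, with 100 counts with dioscin and 296 in TAC alone and 2.92-fold lower, and the orphan receptor Nr5a2, with 13 counts with dioscin and 51 in TAC alone and 3.78-fold lower. Hlf and Dbp are clock-driven factors of the same PAR bZIP family, whose other member Tef had a ratio of 1.27 (1.19 to 1.36). In mouse liver and kidney this family drives P450 and other detoxification genes. The drug receptor Nr1i2 and the liver factor Hnf4a had 0 counts in both libraries. Nr1i3 of the same list had 524 counts with dioscin and 877 in TAC alone, a ratio of 0.603 (0.540 to 0.672), and was not called.

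Of 15 genes listed as partners in arachidonate and oxysterol metabolism, 13 reached 1 CPM. Of these, 5 were higher, 2 lower and 6 did not pass, beside 9.80% higher and 7.27% lower among protein-coding genes. The median log2 ratio of the 13 was 0.46. Ephx2, the soluble epoxide hydrolase that inactivates the epoxy acids made by P450 epoxygenases, had 4944 counts (289 CPM) with dioscin and 1253 counts (72.6 CPM) in TAC alone, a ratio of 3.98 (3.74 to 4.24). Ephx1, the microsomal hydrolase, had a ratio of 2.20 (2.01 to 2.41). Pla2g4a, the phospholipase that releases arachidonic acid from membranes, had 151 counts with dioscin and 35 in TAC alone, a ratio of 4.31 (2.997 to 6.48). Ptgs1, the constitutive cyclooxygenase, had a ratio of 2.78 (2.41 to 3.22). Hsd17b11, a lipid droplet dehydrogenase also counted in this list, had a ratio of 2.52 (2.22 to 2.86). The lower genes were Ephx3, with 15 counts with dioscin and 45 in TAC alone, and Gpr75, a receptor for an omega-hydroxylated arachidonic acid, with 10 with dioscin and 34 in TAC alone. Pla2g4a, Ephx1 and Ephx2 were thus higher, and the epoxide hydrolase Ephx3 lower, in the library in which the epoxygenases Cyp2j6 and Cyp2j9 had ratios of 0.811 and 1.44. The fibroblast, fat, mesothelial and atrial markers were higher in that library too, and their part in these values was not tested.

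**Figure D4:**
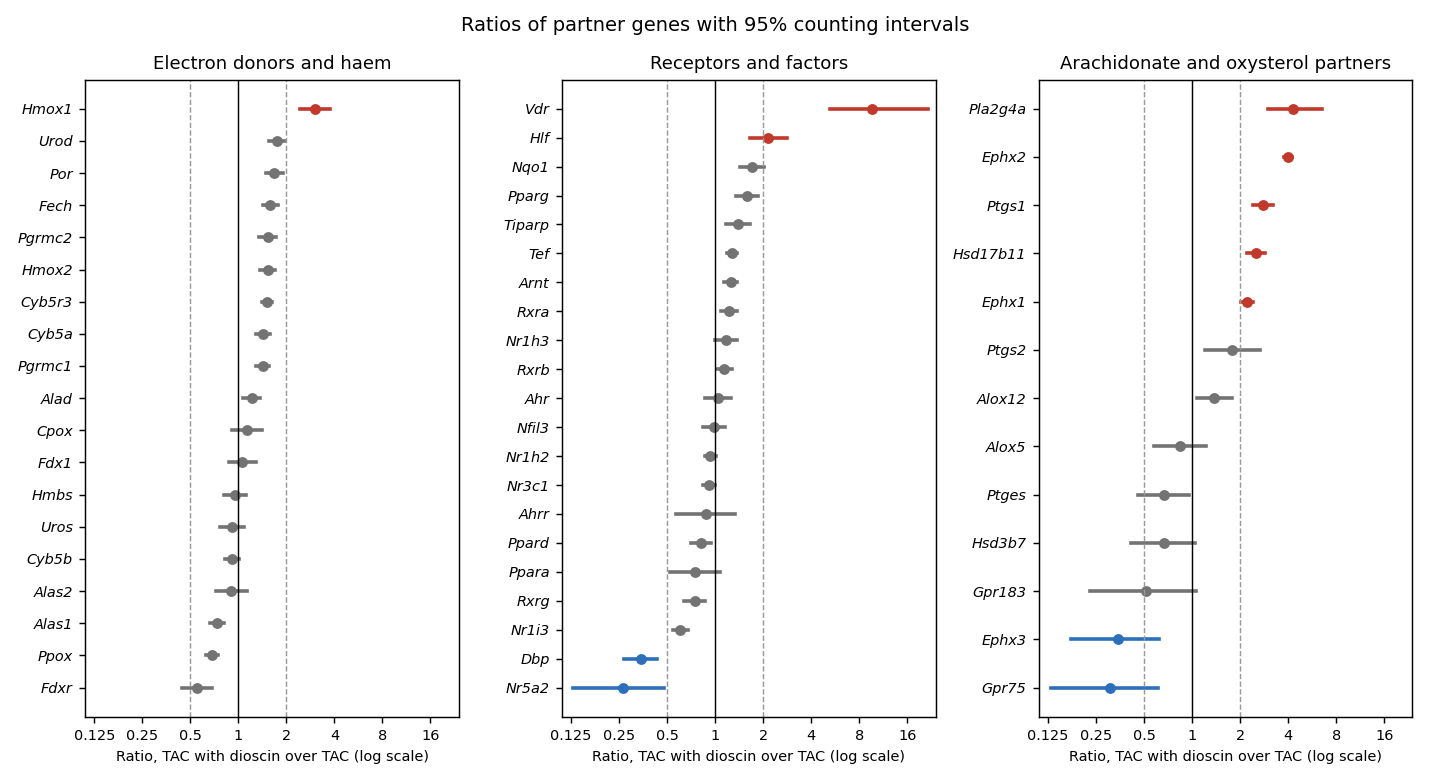
Ratio (dioscin over TAC, log scale) for the listed partner genes at 1 CPM or more, with bars for the 95% counting interval and dashed lines at 0.5 and 2. Red marks genes higher, blue genes lower and grey genes not past the size rule. Hmox1 is the 1 called gene among electron donors and haem genes, while 5 of 13 genes of the arachidonate and oxysterol list are higher and 2 lower.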

How the data were processed

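Raw counts of reads per gene were deposited by the authors, from TruSeq libraries of 1 ug total RNA per the labels' protocols. The submitters' processing notes name HISAT2 2.1.0, HTSeq and mm10. Its annotation release, HTSeq version and strand setting are not given in the sources used here. Reads given to no gene were left out. Those with several alignments were 36.5% of all reads listed for the dioscin library and 38.2% for the TAC library, so near-identical P450 genes may be undercounted.

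GENCODE M21 (GRCm38) matched 55141 of 55401 identifiers, and RefSeq promoter windows 72 of the 93 members. Library sizes were scaled by TMM (edgeR 4.0.16, R 4.3.3). Ratios have 0.5 added to both counts, and intervals were computed with scipy 1.17.1. The calling rule was checked on simulated data. Members at 1 CPM or more, and those under it with 10 or more counts, are named, as are called genes of the partner lists. Other partner genes were chosen after their values were seen. Members and lists were chosen with earlier results of these data known. Alternatives were other scalings (DESeq2 1.42.0 among them), pseudocount, filters, fold, interval and centring on GC content and length.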

Additional observations from a re-analysis of the deposited data

How the results depend on the processing

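No paired analysis was possible because each group had 1 library. For the same reason no library could be left out. Under the 5 alternatives that recompute a ratio (total-count, DESeq2 and nuclear-gene scaling, a pseudocount of 1, and centring on GC content and length), 99 of 105 values for single members stayed within their main 95% counting interval, and the 5 higher and 2 lower members kept their calls. Cyp39a1 came nearest to the 2-fold limit, which is 1 on the log2 scale. Its log2 ratio of 1.21 became 1.005 with nuclear-gene scaling and 1.040 with centring. The alternatives other than these 5 change only which genes are tested or called. Nuclear-gene scaling moved the median log2 ratio of all genes by -0.21 and added Cyp26a1 as lower by lifting it past 1 CPM. The median was 0.079 for the same 21 members and -0.029 with Cyp26a1. Without the filter 8 members were higher, by adding Cyp11a1, Cyp2b10 and Cyp8b1, beside 9.04% of protein-coding genes. With a fold of 1.5, 9 were higher, by adding Cyp2d22, Cyp4b1, Cyp4f17 and Cyp4v3, beside 20.2%. With the 5 CPM filter 4 were higher and 1 lower, beside 8.42% and 5.40%. The median log2 ratio of the 15 members left was 0.65, and that of protein-coding genes 0.036. This filter left out Cyp2ab1, Cyp46a1, Cyp4f18 and Cyp7b1, which lie below the main median, and Cyp2j9 and Cyp4f15, which lie above it. With 1 CPM asked in both libraries, 2 were higher and 1 lower. With the 99% interval 1 was lower, beside 6.84%, and the call lost was that of Cyp7b1, with 8 counts with dioscin and 22 in TAC alone.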
